A study of Mus musculus with 4 samples.

Results

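The 9 genes described here encode enzymes of the tricarboxylic acid cycle, namely *Cs*, *Idh3a*, *Idh3b*, *Idh3g*, *Ogdh*, *Sucla2*, *Suclg1*, *Fh1* and *Mdh2*. They were picked by symbol from the 23337 gene symbols measured in mouse heart, as enzymes of the cycle without the succinate dehydrogenase subunits. They are not all such enzymes, and *Idh2*, *Dlst*, *Dld* and *Suclg2* are given separately below. All 9 were present and all 9 passed the filter on low values, which 14847 genes passed. RNA-seq libraries were made from hearts of C57BL6/J mice, untreated, of 4 groups. PIMTfl/fl mice carry loxP sites around exons 3 and 4 of the gene for PIMT, a coactivator-interacting RNA methyltransferase whose gene symbol is *Tgs1*. The csPIMT-/- mice carry the same floxed alleles and in addition Cre recombinase driven by the α-myosin heavy chain promoter, which is active in cardiomyocytes, so that other cells of the heart keep the gene. The PIMTfl/fl controls lack Cre, and the effects of Cre and of the deletion cannot be told apart. Each genotype was taken at 2 and at 6 months of age, and each group is 1 library of RNA pooled from 5 hearts of both sexes, with no replicate library.

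The cycle runs in the mitochondrial matrix and oxidizes the acetyl group of acetyl-CoA to carbon dioxide, passing electrons to NADH and to the flavin of succinate dehydrogenase, which feed the respiratory chain. Its dehydrogenases at isocitrate and 2-oxoglutarate are the steps most tightly regulated, and the succinyl-CoA synthetase step makes a nucleoside triphosphate directly. Heart muscle is rich in mitochondria, and most of its acetyl-CoA comes from fatty acid oxidation.

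The values are normalized counts as deposited, that is reads per gene divided by a size factor of the library. The libraries held between 29823073 and 40705783 reads on genes. *Tgs1*, the targeted gene, stood at 580 and 816 normalized counts in the 2-month and 6-month controls and at 160 and 162 in the csPIMT-/- libraries. These are ratios of 0.276 (95% counting interval 0.227 to 0.334) and 0.199 (0.167 to 0.236), so both libraries labelled csPIMT-/- were low in the targeted gene. Of the 10 cardiomyocyte markers 1 (*Pln*, a regulator of the calcium pump) was lower in csPIMT-/- hearts and none was higher by the test used below, and 5 of 10 had a ratio below 1 at 2 months and 6 of 10 at 6 months. Their summed level was 3498810 and 4042060 in the controls against 2846170 and 2214740 in the csPIMT-/- libraries, but without *Ttn*, the titin gene, it was 1629990 and 1593980 against 1776850 and 1501420. The 5 atrial markers summed to 41164 and 115365 in the controls and to 325798 and 348609 in the csPIMT-/- libraries. Without *Nppa*, a natriuretic peptide gene that also marks ventricular stress, the other 4 summed to 2982 and 44706 against 124618 and 28312, so they were above control at 2 months and below it at 6 months, where 4 of the 5 had a ratio below 1. The 5 brown fat markers summed to 1908 and 1902 against 7771 and 3051, and without *Cidea* to 19.0 and 887 against 5210 and 452, again above control at 2 months and below it at 6 months. The 5 lung markers summed to 1.73 and 8.79 against 1160 and 17.7, and without *Bpifa1* to 1.73 and 7.92 against 181 and 9.36. The 8 leukocyte markers summed to 7665 and 19785 against 22954 and 31366, and 4 of the 7 tested were higher. Without *Lyz2* they summed to 5470 and 11469 against 12572 and 17516.5. A ratio above 1 was seen in 6 of 7 at 2 months and in 5 of 7 at 6 months. *Ptprc* went the other way at both ages (0.533 and 0.443), as did *Emr1* at 6 months (0.742). Of 7 endothelial markers 3 were lower and none higher. Of 8 fibroblast markers 1 was lower and none higher by the test, with 5 of 8 below 1 at 2 months (median ratio 0.842) and 7 of 8 above 1 at 6 months (median ratio 1.83). Of the 5 erythroid markers 4, all globin genes, were listed at 0 in every library. The remaining one, *Alas2*, had a ratio of 0.604 at 2 months and 4.30 at 6 months and did not pass the test. Over all genes tested 17.5% were lower and 11.0% higher. The test called 0 genes when a trend with transcript GC content was subtracted, and 0 without a trend of the variance with the mean. The marker calls given here are therefore lost in both settings. The part of these cell types in the values below was not tested.

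*Sucla2* showed the lowest csPIMT-/- level of the 9 genes relative to control. It encodes the β-subunit of the ATP-forming succinyl-CoA synthetase, which converts succinyl-CoA to succinate. Its gene lies at chr14:73525319-73596142 on the plus strand (GRCm38, the same build as mm10), and the transcript used has 11 exons. It was at 16237 normalized counts in the 2-month control and 27667 in the 6-month control, against 3601 and 2399 in the csPIMT-/- libraries of 2 and 6 months. Both csPIMT-/- libraries were below both controls, and the lower of the controls was above the higher of the csPIMT-/- libraries by a wide margin. The ratio of csPIMT-/- over control was 0.222 (0.213 to 0.231) at 2 months and 0.0867 (0.0831 to 0.0905) at 6 months. Over both ages the limma log2 difference was -2.85 ± 0.361 (SE, 4 libraries; Benjamini-Hochberg adjusted p = 0.016), a fold of 0.139, so *Sucla2* fell in this fit. Its call was lost when a trend with transcript GC content, described below, was subtracted (log2 difference -1.68, adjusted p = 0.109, ratios 0.462 and 0.208) and without a trend of the variance with the mean (adjusted p = 0.066). In pooled heart tissue fewer cells of a type and less RNA per cell cannot be told apart.

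The stretch of *Sucla2* between the RT-qPCR primers used in the study is printed here because it is the piece of the transcript that identifies the gene in the other RNA assay of the study. It is coding sequence, it spans exons 2 and 3 at transcript positions 297 to 444, and it is 148 bases long with 45.3% GC, with the primer sites in capitals.
Sucla2 amplicon: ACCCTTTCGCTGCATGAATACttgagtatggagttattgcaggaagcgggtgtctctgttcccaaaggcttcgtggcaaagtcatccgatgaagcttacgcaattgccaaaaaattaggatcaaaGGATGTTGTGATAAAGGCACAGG

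*Idh3a* was the other member that fell in this fit. It encodes the catalytic α-subunit of the NAD-dependent isocitrate dehydrogenase, and its gene lies at chr9:54586334-54604661 on the plus strand (11 exons). It was at 16193 and 15547 normalized counts in the 2-month and 6-month controls and at 7782 and 6371 in the csPIMT-/- libraries. The control libraries were close to each other, and both csPIMT-/- libraries were below them. The ratios were 0.481 (0.467 to 0.495) at 2 months and 0.410 (0.398 to 0.422) at 6 months, and the limma log2 difference was -1.17 ± 0.206 (SE, adjusted p = 0.022), a fold of 0.444. Its call was lost without the 2-month control (adjusted p = 0.064) and without the 6-month control (adjusted p = 0.066), each in a fit with genotype alone, and without the variance trend (adjusted p = 0.079). With the GC trend subtracted its ratios were 0.838 and 0.801 and its log2 difference -0.28 (adjusted p = 0.409).

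Of the 9 members 2 were thus lower and 0 higher at an adjusted p under 0.05. Over all genes tested 17.5% were lower and 11.0% higher, so a share of 2 in 9 is near the background. At an unadjusted p under 0.05 no member was higher either, and edgeR and DESeq2 on the recovered reads also called 0 higher. The median limma log2 difference of the members was -0.17, against 0.03 over all genes. In 4 members, *Cs*, *Idh3a*, *Sucla2* and *Fh1*, both csPIMT-/- libraries lay below both controls, as in 35.9% of all genes, and in 2, *Idh3g* and *Ogdh*, above both, as in 35.2%.

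**Figure D1:**
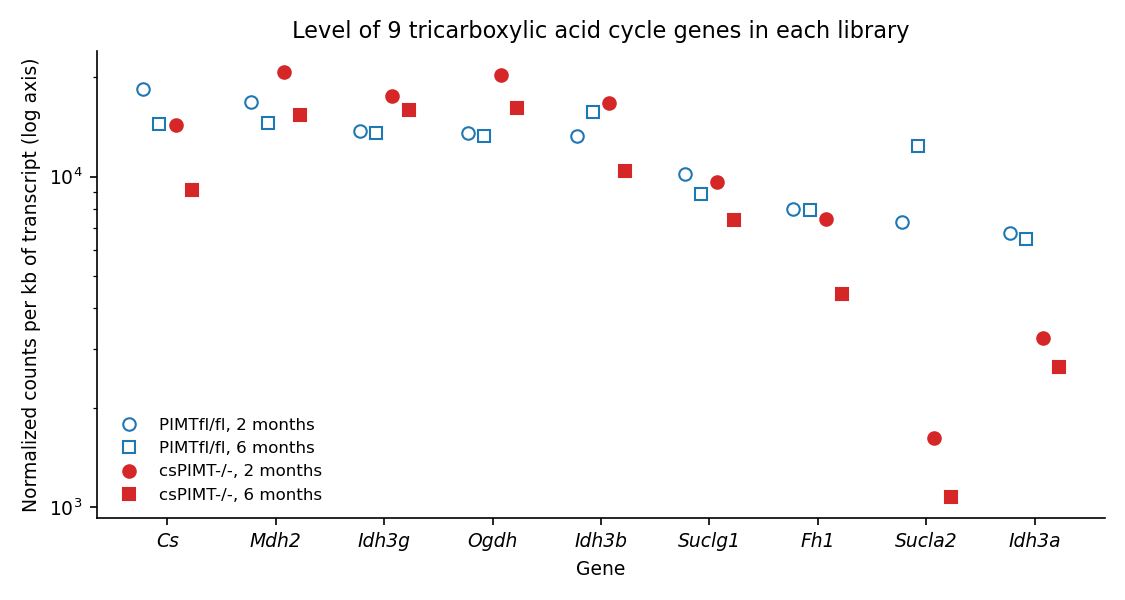
Level of each of the 9 genes in the 4 libraries, in normalized counts per kb of transcript on a log axis, with PIMTfl/fl as open blue symbols, csPIMT-/- as filled red symbols, circles for 2 months and squares for 6 months. Each point is 1 library; the csPIMT-/- points of *Sucla2* (1616 and 1076) and *Idh3a* (3239 and 2651) stand below the points of every other gene.

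Citrate synthase (*Cs*, chr10:128337734-128362479, plus strand, 11 exons) joins acetyl-CoA to oxaloacetate and is the entry to the cycle. It was at 53939 and 42301 normalized counts in the 2-month and 6-month controls and at 41801 and 26736 in the csPIMT-/- libraries. The 2-month csPIMT-/- value was only just below the 6-month control, and the ratio at 2 months, 0.775 (0.765 to 0.785), was 0.988 against that other control. The ratio at 6 months was 0.632 (0.623 to 0.642). The limma log2 difference of -0.51 ± 0.241 (SE) did not pass the test (adjusted p = 0.161).

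In the deposited values the other subunits of isocitrate dehydrogenase 3 did not share the ratios of *Idh3a*. *Idh3b* (chr2:130279309-130284547, minus strand, 12 exons) encodes the β-subunit and *Idh3g* (chrX:73778963-73786897, minus strand, 13 exons) the γ-subunit, both of which regulate the catalytic subunit. *Idh3b* was at 21378 and 25281 normalized counts in the controls and at 26891 and 16841 in the csPIMT-/- libraries of 2 and 6 months. It was thus above its control at 2 months, with a ratio of 1.26 (1.24 to 1.28), and below it at 6 months, with 0.666 (0.653 to 0.679). Its limma log2 difference was -0.13 ± 0.296 (SE, adjusted p = 0.761). With the GC trend described below subtracted, its ratios were 1.07 and 0.540 and its limma log2 difference -0.38 (adjusted p = 0.471). *Idh3b* was then lower than *Idh3a* at 6 months (0.540 against 0.801) and in the fit (-0.38 against -0.28). Exons annotated for *Idh3b*, over all its transcripts, overlap *Nop56* on the opposite strand by 5 bases, and the libraries were directional. *Idh3g* was at 18317 and 18065 in the controls and at 23310 and 21228 in the csPIMT-/- libraries, with close controls and ratios of 1.27 (1.25 to 1.30) and 1.18 (1.15 to 1.20). The log2 difference of *Idh3g*, 0.29 ± 0.212 (SE), did not pass the test (adjusted p = 0.334), and its 6-month ratio crossed to 0.963 once the trend with GC content described below was subtracted.

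*Ogdh* (chr11:6291633-6356642, plus strand, 23 exons) encodes the E1 component of the 2-oxoglutarate dehydrogenase complex, which makes succinyl-CoA. It had 55705 and 54652 normalized counts in the controls and 83680 and 66623 in the csPIMT-/- libraries. The controls nearly coincided and both csPIMT-/- libraries were above them. The ratios were 1.502 (1.49 to 1.52) and 1.22 (1.21 to 1.23), the second of which became 0.954 with the GC trend subtracted, and the log2 difference was 0.44 ± 0.260 (SE, adjusted p = 0.249), which did not pass the test.

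*Suclg1* (chr6:73248382-73276911, plus strand, 9 exons) encodes the α-subunit of succinyl-CoA synthetase, the common partner of *Sucla2* and of *Suclg2*. It was at 15440 and 13457 normalized counts in the controls and at 14587 and 11187 in the csPIMT-/- libraries. The groups overlapped, and the spread between the controls was wider than the difference at 2 months. The ratios were 0.945 (0.923 to 0.967) and 0.831 (0.811 to 0.852), the first of which was 1.08 against the 6-month control, and the log2 difference was -0.17 ± 0.207 (SE, adjusted p = 0.545).

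*Fh1* (chr1:175600374-175625635, minus strand, 10 exons) encodes fumarase, which hydrates fumarate to malate. It was at 21060 and 20870 normalized counts in the controls and at 19548 and 11643 in the csPIMT-/- libraries. The controls were close, the 2-month csPIMT-/- library was slightly lower and the 6-month csPIMT-/- library stood well below the rest. The ratios were 0.928 (0.910 to 0.947) and 0.558 (0.545 to 0.571), the first of which turned to 1.23 with the GC trend subtracted, and the log2 difference of -0.47 ± 0.265 (SE) did not pass the test (adjusted p = 0.223).

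*Mdh2* (chr5:135778480-135790398, plus strand, 9 exons) encodes mitochondrial malate dehydrogenase, which regenerates oxaloacetate. It was at 24540 and 21130 normalized counts in the controls and at 30165 and 22332 in the csPIMT-/- libraries. The 6-month csPIMT-/- value lay between the controls. The ratios were 1.23 (1.21 to 1.25) and 1.06 (1.04 to 1.08), which turned to 0.826 and 0.697 with the GC trend subtracted, and the log2 difference was 0.19 ± 0.221 (SE, adjusted p = 0.540).

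With 1 library per group at each age there is no test at a single age, and the intervals given cover counting error only. At 2 months 5 of the 9 members had a ratio below 1, against 50.1% of all genes, and 2 had a ratio below 0.5, against 22.5%. No member had a ratio above 2, against 17.3% of all genes, and the median ratio of the members was 0.945, against 0.999 over all genes. At 6 months 6 of 9 were below 1 (49.9% of all genes), 2 below 0.5 (24.9%) and 0 above 2 (16.9%). The median ratio at 6 months was 0.666, against 1.003 over all genes. These shares cover all genes with at least 10 reads in either library and are not matched to the level of the members. The members below 0.5 at both ages were *Sucla2* and *Idh3a*. The summed level of the 9 members was 242810 and 238970 normalized counts in the controls and 251364 and 185361 in the csPIMT-/- libraries, so the sum at 2 months was above both controls although *Sucla2* and *Idh3a* were low, and the sum at 6 months was below both.

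**Figure D2:**
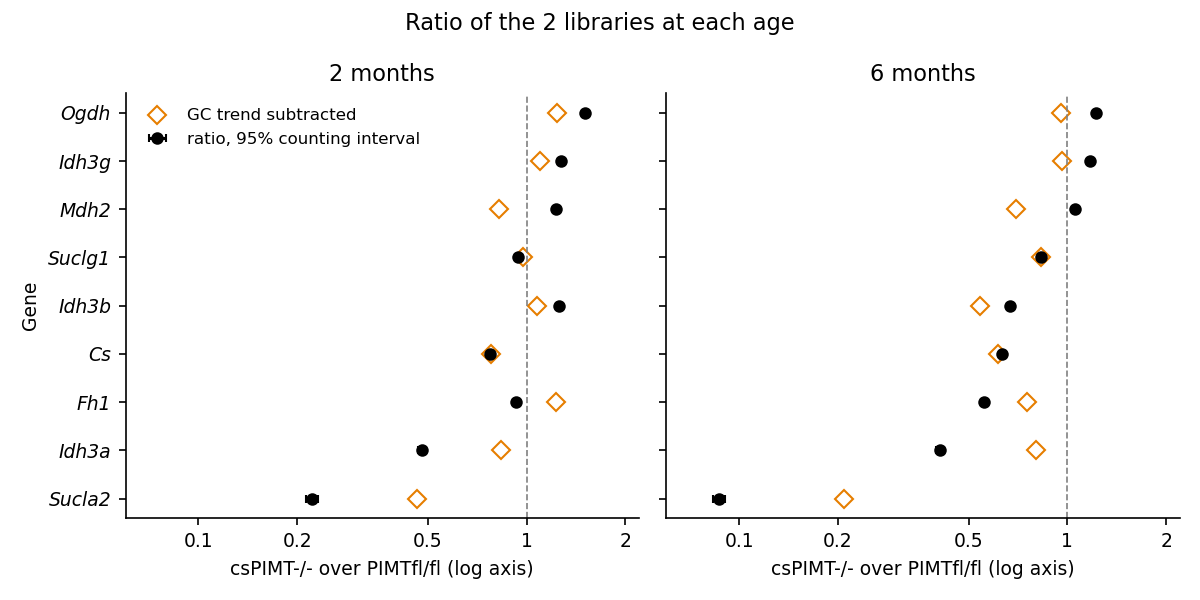
Ratio of the csPIMT-/- over the PIMTfl/fl library of the same age for the 9 genes on a log axis, at 2 months (left) and 6 months (right). Black points are ratios of the deposited values with 95% counting intervals, mostly smaller than the point, open diamonds are the ratios with the GC trend subtracted, and the dashed line marks equality. *Sucla2* stands lowest in both panels by either value, and the diamond of *Idh3a* (0.838 and 0.801) stands much nearer to 1 than its point.

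The libraries of 1 genotype at the 2 ages give another view of the spread between pools. In the controls the ratio of 6 over 2 months was between 0.784 (*Cs*) and 1.70 (*Sucla2*) with a median of 0.981, and 7 of 9 members were below 1, against 42.9% of all genes. In the csPIMT-/- libraries it was between 0.596 (*Fh1*) and 0.911 (*Idh3g*) with a median of 0.740, and 9 of 9 were below 1, against 46.0% of all genes. Related lists given below were also mostly below 1 in the csPIMT-/- libraries. These were 6 of 8 other cycle genes (median 0.828) and 7 of 11 pyruvate dehydrogenase genes (0.915). Likewise 14 of 17 anaplerosis and shuttle genes (0.797) and 12 of 13 mitochondrial membrane and matrix genes (0.798) were below 1. Neither genotype had a member below 0.5 or above 2, against 4.65% and 9.01% of all genes in the controls and 8.2% and 9.71% in the csPIMT-/- libraries. These shares too are not matched to the level of the members. The age ratio of *Sucla2* was thus above 1 in the controls, 1.70 (1.67 to 1.74), and below 1 in csPIMT-/- hearts, 0.666 (0.630 to 0.704). Age and pool cannot be told apart here, and the difference between these age ratios was not tested.

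Levels were compared between genes as normalized counts per kb of transcript. In the 2-month control they ran from 18434 for *Cs* and 16854 for *Mdh2* through *Idh3g* (13762), *Ogdh* (13498), *Idh3b* (13229), *Suclg1* (10164), *Fh1* (7990) and *Sucla2* (7285) to 6739 for *Idh3a*. The steps from *Idh3g* to *Ogdh* and from *Ogdh* to *Idh3b* were 1.02-fold each, and most steps were smaller than the spread of single members between the control pools, so that the order among the highest members is not fixed by these data. In the 6-month control the order opened with *Idh3b* (15644), and *Sucla2* ranked above *Suclg1* (12412 against 8859 per kb). *Idh3a* was the lowest in both controls. In both csPIMT-/- libraries the lowest was *Sucla2*, at 1616 and 1076 per kb, with *Idh3a* next at 3239 and 2651, and these steps were wide, with *Fh1* 2.29-fold above *Idh3a* at 2 months and 1.67-fold at 6 months, and *Idh3a* 2.00-fold and 2.46-fold above *Sucla2*.

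A ratio of 2 subunits within a library does not depend on how the libraries were scaled. *Sucla2* over *Suclg1*, as counts per kb, was 0.717 and 1.40 in the 2-month and 6-month controls and 0.168 and 0.146 in the csPIMT-/- libraries. The β-subunit message was thus near that of its partner in the controls and far below it in both csPIMT-/- libraries, by a fold of 0.235 (0.224 to 0.246) at 2 months and 0.104 (0.0993 to 0.110) at 6 months. In the deposited values the alternative GTP-forming β-subunit, *Suclg2*, did not stand higher in its place. *Suclg2* over *Suclg1* was 0.104 and 0.167 in the controls and 0.0631 and 0.0623 in the csPIMT-/- libraries, with folds of 0.606 (0.570 to 0.645) and 0.374 (0.351 to 0.398). With the GC trend subtracted, *Suclg2* (44.4% GC) had ratios of 1.05 and 0.648 and *Suclg1* 0.973 and 0.834. *Suclg2* was then slightly above its partner at 2 months and below it at 6 months. *Sucla2* stood 6.88-fold and 8.40-fold above *Suclg2* in the controls and 2.66-fold and 2.34-fold above it in the csPIMT-/- libraries.

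In isocitrate dehydrogenase 3, whose assembly needs more α- than β- or γ-subunit, the ratio *Idh3a* over *Idh3g* was 0.490 and 0.477 in the controls and 0.185 and 0.166 in the csPIMT-/- libraries, folds of 0.378 (0.365 to 0.391) and 0.349 (0.337 to 0.361). These ratios differed little between the ages within a genotype. *Idh3a* over *Idh3b* was 0.509 and 0.414 in the controls and 0.195 and 0.254 in the csPIMT-/- libraries. With the GC trend subtracted, *Idh3a* had ratios of 0.838 and 0.801 and *Idh3b* 1.07 and 0.540. *Idh3a* was then the lower of the pair at 2 months and the higher at 6 months. *Idh3b* over *Idh3g* was 0.961 in the control and 0.950 in the csPIMT-/- library of 2 months, a fold of 0.988 (0.962 to 1.02) whose interval includes 1, and 1.15 and 0.653 at 6 months, a fold of 0.567 (0.552 to 0.583). In the 2-oxoglutarate dehydrogenase complex, *Ogdh* over *Dlst*, its E2 component, was 1.65 and 1.64 in the controls and 2.73 and 2.68 in the csPIMT-/- libraries. *Dld* over *Ogdh* was 0.278 and 0.416 in the controls and 0.0390 and 0.0659 in the csPIMT-/- libraries, where *Dld* encodes the E3 component that this complex shares with pyruvate dehydrogenase. The ratios of *Dld* (40.6% GC), 0.211 and 0.193, became 0.566 and 0.574 with the GC trend subtracted. Those of *Ogdh* became 1.24 and 0.954. With the GC trend subtracted, the log2 difference of *Idh3a* over *Idh3g* moved from -1.40 to -0.39 at 2 months and from -1.52 to -0.27 at 6 months, and that of *Sucla2* over *Suclg1* from -2.09 to -1.07 and from -3.26 to -2.004.

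**Figure D3:**
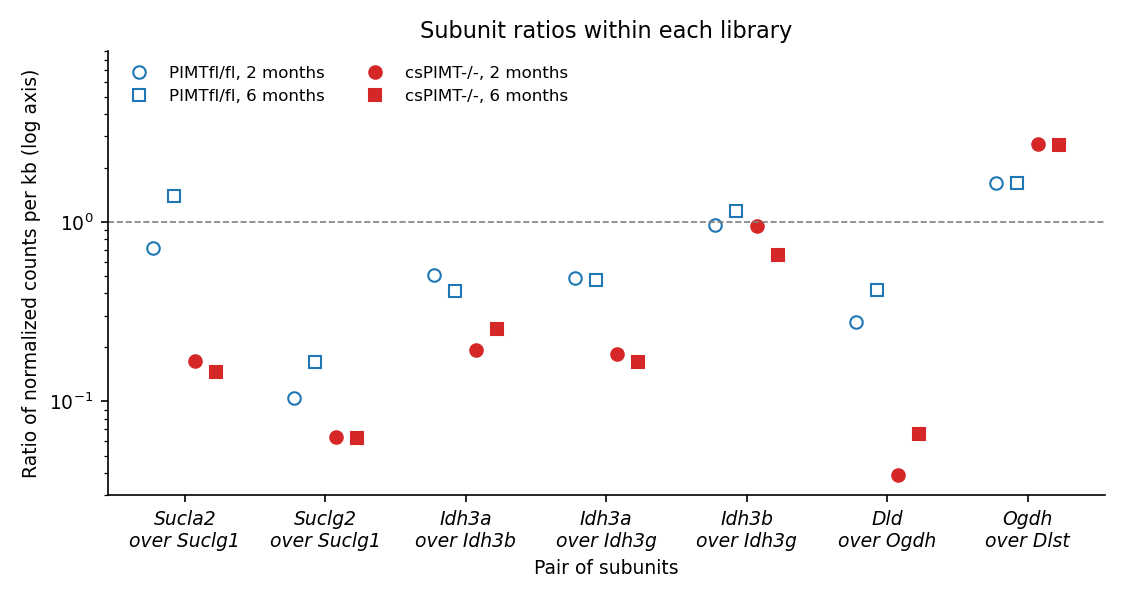
Ratio of 2 subunits of the same enzyme within each library, as normalized counts per kb on a log axis, with PIMTfl/fl as open blue symbols, csPIMT-/- as filled red symbols, circles for 2 months and squares for 6 months. Each point is 1 library and the dashed line marks equal levels; *Sucla2* over *Suclg1* is 0.717 and 1.40 in the controls against 0.168 and 0.146, and *Ogdh* over *Dlst* is the pair that stands higher in both csPIMT-/- libraries.

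Also on the list were 8 other genes of the cycle, *Idh2*, *Dlst*, *Dld*, *Suclg2* and the succinate dehydrogenase subunits *Sdha*, *Sdhb*, *Sdhc* and *Sdhd*. Of these 3 fell and 0 passed the test upwards, beside 17.5% lower and 11.0% higher over all genes, and subtracting the GC trend or leaving out the variance trend, after which limma called 0 genes, ends these calls too, here and in the lists that follow. *Dld* was at 9542 and 14006 normalized counts in the controls and 2013 and 2707 in the csPIMT-/- libraries, with a limma log2 difference of -2.31 ± 0.198 (SE, adjusted p = 0.016). *Suclg2* was at 3566 and 4975 against 2042 and 1546, with -1.24 ± 0.281 (SE, adjusted p = 0.034). *Sdha*, the flavoprotein subunit, was at 31495 and 36149 against 19736 and 13794 and had a difference of -1.03 ± 0.268 (SE, adjusted p = 0.045). *Idh2* (0.29), *Dlst* (-0.28), *Sdhb* (0.42), *Sdhc* (0.37) and *Sdhd* (-0.02) did not pass the test, with adjusted p-values between 0.213 (*Sdhb*) and 0.943 (*Sdhd*). Over these 17 genes of the cycle 5 were lower and 0 higher, and 12 did not pass. The members held *Sucla2* and *Idh3a* of the 5.

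**Figure D4:**
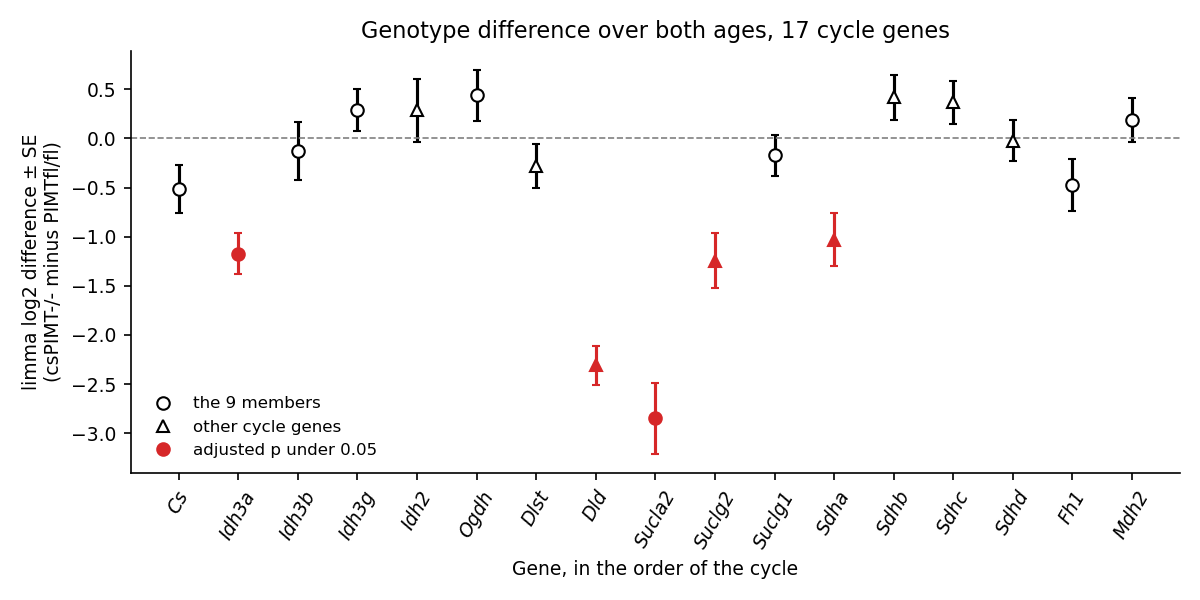
Limma log2 difference (csPIMT-/- minus PIMTfl/fl, over both ages, on log2 of the value plus 1) with its SE for 17 genes in the order of the cycle. Circles are the 9 members, triangles the other genes, and filled red symbols have an adjusted p under 0.05; the 5 that fell lie between *Idh3a* and *Sdha*, and none of the 17 passed the test upwards.

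Genes around the cycle were read from fixed lists, of which the lowest and highest are named, and their counts stand beside the same 17.5% and 11.0% over all genes. Of 11 genes of the pyruvate dehydrogenase complex and its regulators 2 fell and 0 were higher, namely *Pdha1*, the E1α-subunit (log2 difference -1.43 ± 0.238 SE, adjusted p = 0.020), and *Dlat*, the E2 component (-1.01 ± 0.244, adjusted p = 0.039). *Pdk4*, a kinase that inactivates the complex, was at 35031 and 11858 normalized counts in the controls and 4617 and 12138 in the csPIMT-/- libraries, and its difference of -1.44 ± 0.690 (SE) did not pass (adjusted p = 0.168). *Pdp1* (-1.02, adjusted p = 0.081) did not pass either, nor did the 3 highest, *Pdk2* (0.26), *Pdpr* (-0.01) and *Pdk3* (-0.09). Of 17 genes of anaplerosis and the malate-aspartate shuttle 1 fell and 1 rose. *Idh1*, the cytosolic isocitrate dehydrogenase, fell (-1.10 ± 0.264 SE, adjusted p = 0.038), and *Slc25a1*, the citrate carrier, rose (1.70 ± 0.406 SE, adjusted p = 0.038). *Pcx*, pyruvate carboxylase, was at 685 and 2497 in the controls and 7814 and 4525 in the csPIMT-/- libraries (2.18 ± 0.625 SE, adjusted p = 0.056), which did not pass. *Me1* (-0.77), *Glud1* (-0.44) and *Slc25a10* (0.95) did not pass. Of 13 genes of the mitochondrial membranes and matrix 3 fell and 0 were higher. These were the chaperones *Hspd1* (-2.55 ± 0.292 SE, adjusted p = 0.016) and *Hspa9* (-1.09 ± 0.262 SE, adjusted p = 0.038) and the import factor *Timm44* (-1.24 ± 0.214 SE, adjusted p = 0.022), while *Phb* (0.63), *Tomm22* (0.57) and *Phb2* (0.46) were the highest and did not pass.

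The differences of the members moved with the base composition of their transcripts. *Sucla2* (43.2% GC) and *Idh3a* (44.9%) have the lowest GC content of the 9, *Fh1* has 47.7%, *Suclg1* 50.2%, *Cs* 50.4%, *Idh3g* 52.0%, *Idh3b* 52.1%, *Ogdh* 52.5% and *Mdh2* 55.4%. Across the 9 genes Spearman's rho between GC content and the limma log2 difference was 0.867 (n = 9 genes, which share the 4 libraries), and across the 17 genes of the cycle 0.801. Over all genes it was 0.663, and for the ratios of single ages 0.593 at 2 months and 0.621 at 6 months, whereas it was -0.273 between the controls of 6 and 2 months and -0.0956 between the csPIMT-/- libraries. The 5 cycle genes that fell have 40.6% to 48.5% GC and the other 12 have 47.7% to 55.4%. When a smooth trend with GC content was subtracted, *Sucla2* was still the lowest of the 9 at both ages (0.462 and 0.208), and at 6 months 9 of 9 members were then below 1 with a median ratio of 0.755. In the limma fit 0 of 14679 genes then passed, with 3582 at an unadjusted p under 0.05. Without a trend of the variance with the mean, limma also called 0 genes (5965 at an unadjusted p under 0.05), whereas edgeR on the recovered reads called *Sucla2* (adjusted p = 0.015) and *Idh3a* (adjusted p = 0.024) among 2521 lower and 1637 higher genes.

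**Figure D5:**
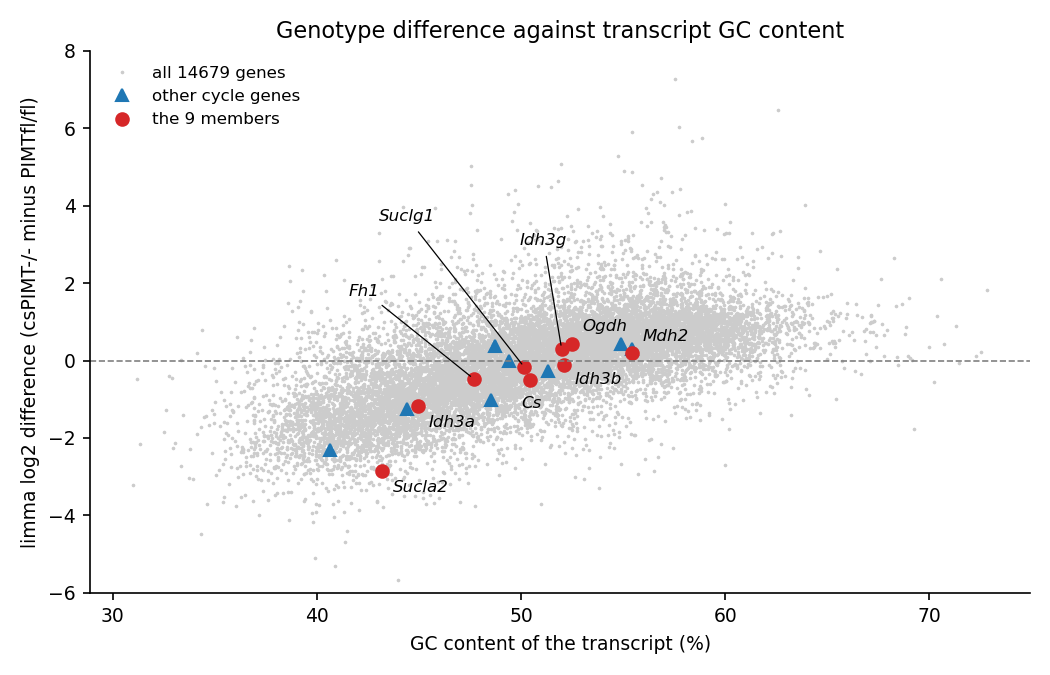
Limma log2 difference over both ages (csPIMT-/- minus PIMTfl/fl) against the GC content of the transcript in percent, for 14679 genes with a matched transcript (grey), the 9 members (red circles, named) and the other cycle genes (blue triangles). The grey cloud slopes upward from left to right (Spearman's rho 0.663), *Idh3a* lies inside it, and *Sucla2* lies toward its lower edge.

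The last 150 coding bases of 4 subunits are printed to show this difference in base composition, within the coding sequence, between the members that fell and their partners, with the stop codon in capitals. The GC content of these stretches is 40% in *Sucla2* and 42.0% in *Idh3a*, against 50% in *Suclg1* and 50.7% in *Idh3g*. The sequences are from the GENCODE M21 transcripts.
Sucla2 coding end: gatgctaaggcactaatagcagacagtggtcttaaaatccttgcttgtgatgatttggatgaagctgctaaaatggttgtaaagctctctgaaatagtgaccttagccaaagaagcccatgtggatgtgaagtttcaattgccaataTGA
Suclg1 coding end: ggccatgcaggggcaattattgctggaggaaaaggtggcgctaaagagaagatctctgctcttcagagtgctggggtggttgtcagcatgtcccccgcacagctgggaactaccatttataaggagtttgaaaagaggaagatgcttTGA
Idh3a coding end: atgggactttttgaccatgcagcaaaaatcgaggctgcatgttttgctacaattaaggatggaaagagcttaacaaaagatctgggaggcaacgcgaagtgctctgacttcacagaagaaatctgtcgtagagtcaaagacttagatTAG
Idh3g coding end: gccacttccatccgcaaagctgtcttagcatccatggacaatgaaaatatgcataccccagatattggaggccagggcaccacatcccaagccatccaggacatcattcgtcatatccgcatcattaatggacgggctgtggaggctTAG

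The promoter table (RefSeq, GRCm38.p6) held a window for 8 of the 9 members, all but *Idh3a*. The 250 bases before the start were searched on both strands for the motifs of factors that are known to act on mitochondrial genes. *Ogdh* has 6 windows and the other members 1 each, a gene counts where any of its windows holds the motif, and the share beside it is that of all 27025 genes counted in the same way. The nuclear receptor half-site AGGTCA was in the windows of *Sucla2* and *Fh1* (2 of 8; 15.8% of genes), and the longer form TNAAGGTCA for estrogen-related receptors, which overlaps it, in none of the 8 (1.30%). The NRF1 motif (GCGC and TGCGC with any base between them) was in *Sucla2* alone (4.23%). The ETS core CGGAAG was in *Idh3g*, *Ogdh*, *Fh1* and *Mdh2* (15.3%) and CCAAT in *Cs*, *Idh3b*, *Ogdh* and *Fh1* (37.5%). No motif was in all 8 genes, and of the members that fell only *Sucla2* had a window. The parts of the windows of *Sucla2* and its partner *Suclg1* that lie before any exon of a coding transcript are printed because the messages of these subunits of 1 enzyme had such different ratios, with the half-site of *Sucla2* in capitals. They are chr14:73552536-73552664 (plus strand) for *Sucla2*, at a RefSeq start inside the longer GENCODE gene, and chr6:73248255-73248381 (plus strand) for *Suclg1*.
Sucla2 promoter: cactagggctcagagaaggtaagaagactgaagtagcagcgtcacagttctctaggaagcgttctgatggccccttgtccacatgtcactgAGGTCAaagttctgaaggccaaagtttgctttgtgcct
Suclg1 promoter: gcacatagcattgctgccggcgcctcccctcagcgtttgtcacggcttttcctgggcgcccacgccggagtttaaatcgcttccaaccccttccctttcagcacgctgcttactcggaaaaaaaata

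The genes whose pattern over the 4 libraries was nearest to that of *Sucla2*, by the Euclidean distance of centred log2 values among 14838 genes, were *Zbtb26* (0.102), *Wisp1* (0.157) and *Zfp563* (0.160). *Zbtb26* was at 366 and 623 normalized counts in the 2-month and 6-month controls and at 80.1 and 48.9 in the csPIMT-/- libraries, far below the level of *Sucla2* throughout. The nearest genes to the mean pattern of the 9 members were *Sept6* (0.0364), *Dpysl4* (0.0440) and *Gm15545* (0.0506), with ratios of 0.839, 0.812 and 0.822 at 2 months and 0.621, 0.615 and 0.615 at 6 months. With only 4 libraries many genes can share a pattern.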

How the data were processed

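Hearts of 4 groups gave 1 library each. Per the labels and the methods, polyadenylated RNA was sequenced as directional single-end 50-base reads, which the authors aligned to mm10 with STAR, counted with htseq-count (HTSeq 0.6.1p1 in the submitters' processing notes) on a UCSC annotation and normalized with DESeq2. The deposited signal is 1 normalized count per symbol and library. In each library 100% of values were whole multiples, with a largest deviation of 4.89e-09 reads, of the smallest value above 0 (0.865, 1.23, 0.879 and 1.04 for PIMTfl/fl and csPIMT-/- at 2 months and then at 6 months), so reads were recovered by division. The header for csPIMT-/- at 6 months names read counts, yet its values are normalized.

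The test was limma 3.58.1 (R 4.3.3) on log2(value + 1) of all 4 libraries with genotype and age, a variance trend and Benjamini-Hochberg adjustment over genes with at least 10 in at least 2 libraries. Fold changes of low genes are understated on this scale. With 1 residual degree of freedom and 4.01 prior degrees, p-values rest on spread borrowed across genes and treat the ages as replicates of a genotype. Ratios at 1 age needed 10 or more reads in either library and carry 95% Clopper-Pearson intervals from the reads. Alternatives were TMM or pairwise scaling, other pseudocounts, no filter, no variance trend, edgeR 4.0.16, DESeq2 1.42.0, other controls, each library left out, and a lowess trend on GC content (span 0.3) subtracted. Transcripts were principal coding ones of GENCODE M21, matched for 89.8% of symbols directly and 8.22% by older symbols. The code was tested on simulated data. The 9 members, always named with the other listed cycle genes and *Tgs1*, and the lists were chosen with earlier results of these data known. Of each other pathway list the 3 lowest and the 3 highest log2 differences are named, and the 3 nearest genes to each pattern. A listed gene is not reported here. No batch or run date is given in the sources used here.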

Additional observations from a re-analysis of the deposited data

Results flagged for a closer look

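*Idh3b* lay on opposite sides of its control at the ages, with a ratio of csPIMT-/- over control of 1.26 at 2 months and 0.666 at 6 months. *Idh2*, the NADP-dependent mitochondrial isocitrate dehydrogenase, had 1.70 and 0.873. *Pdk2*, a pyruvate dehydrogenase kinase, had 1.61 and 0.891, and *Pdpr*, a regulator of the pyruvate dehydrogenase phosphatase, 1.19 and 0.827. Each was picked out because its 1 library pair at 2 months went one way and its pair at 6 months the other, and the difference between the ages was not tested. With the GC trend subtracted, *Pdpr* had 1.49 and 1.05 and so was above its control at both ages. *Idh3b* (1.07 and 0.540), *Idh2* (1.14 and 0.576) and *Pdk2* (1.03 and 0.560) stayed on opposite sides.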

How the results depend on the processing

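Leaving out 1 library at a time, in a fit with genotype alone, gave 1 to 2 members lower and 0 higher. The call of *Idh3a* was lost without either control library and *Sucla2* was called in each such fit (adjusted p 0.024 to 0.035). The count of members lower was 0 without the variance trend and 0 with the GC trend subtracted, settings under which limma called no gene at all. With other scaling, pseudocounts, no filter, edgeR, DESeq2 or no age term it stayed at 2. The median ratio at 2 months (0.945) became 0.973 with the GC trend subtracted, 1.06 against the 6-month control and 1.01 against the mean of both controls. That at 6 months (0.666) became 0.649 with size factors of the libraries compared, 0.653 with TMM, 0.755 with the GC trend subtracted, 0.725 against the 2-month control and 0.722 against the mean of both. The csPIMT-/- ratio of 6 over 2 months (median 0.740) became 0.716 with TMM. The log2 difference of *Sucla2* over *Suclg1* became -1.07 with the GC trend subtracted and -3.06 against the other control at 2 months, and -2.004 and -2.29 at 6 months. That of *Idh3a* over *Idh3g* became -0.39 and -0.27 with the GC trend subtracted. Differences that changed sign, none of them called, were *Mdh2* with the GC trend subtracted (-0.39) and, with 1 library left out, *Mdh2* (-0.028 without the 2-month csPIMT-/- library, up to 0.41), *Idh3b* (-0.47 to 0.21) and *Suclg1* (-0.37 to 0.017), the last 2 turning without the 6-month csPIMT-/- library. The cause of these shifts was not tested. Fits with 1 library in an arm assume that it varies like the other arm. The labels carry no replicate numbers, so the age term is the only pairing of libraries in the fit.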
